A study of Mus musculus with 2 samples.

Results

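The mitochondrial ribosomal protein genes of the mouse were taken as all genes whose symbol begins with Mrpl (large subunit) or Mrps (small subunit) followed by a number, without rows marked as pseudogenes. The rule found 78 genes, 49 of the large and 29 of the small subunit, of 55450 genes with a symbol. Poly(A)-selected RNA was measured in the left cerebral cortex of B6NCrl mice (a C57BL/6 substrain) at an age of 6 months, and no agent or allele was named. The labels gave 1 group with 2 libraries, called biological replicates 1 and 2. Both were made from 20 ng of starting RNA, with fragmentation by Nextera tagmentation. The libraries had separate biosample records but the same donor entry, so only the word biological speaks for separate animals, and the spread between them may be technical. The sex was male in 1 label field and not collected in another.

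The mitochondrial ribosome translates the few proteins that the mitochondrial genome encodes, which are core subunits of the respiratory chain and of the ATP synthase. Its RNA comes from the mitochondrial genome, whereas all of its proteins are encoded in the nucleus, made in the cytosol and imported. Some of these proteins descend from the bacterial ribosome, and others were added in the mitochondrial lineage. In brain, a tissue with a high demand for respiration, every cell type needs both subunits.

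Replicate 1 had 51876181 fragments assigned to genes and replicate 2 had 26771050. The members took 249367 and 142710 of these, or 0.481% and 0.533%. Markers of cortex were present in both libraries, among them the neuronal genes Snap25 at 2359 and 2730 TPM and Camk2a at 848 and 1083 TPM, and the oligodendrocyte gene Mbp at 2061 and 2049 TPM (a level scaled to the library and to transcript length). The liver gene Alb was at 0.01 and 0.03 TPM and the kidney gene Umod at 0 in both, while the heart gene Myh6 reached 1.60 and 6.66 TPM and the lung gene Sftpc 2.22 and 2.79 TPM. In bulk tissue, fewer cells of a type and less RNA per cell cannot be told apart.

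Mrpl23, which encodes a protein of the large subunit that in bacteria lies at the exit of the peptide tunnel, had a near-complete copy elsewhere in the genome. This copy was annotated as the processed pseudogene Mrpl23-ps1 and was not counted as a member. The first 90 bases from the start codon (in capitals) are shown for both, because the values of Mrpl23 depended on how fragments were divided between them. The transcript Mrpl23-201 comes from the plus strand of chr7:142532686-142540747 and the pseudogene from the minus strand of chr2:74591330-74591909 (mm10, GENCODE M21 transcripts).
Mrpl23: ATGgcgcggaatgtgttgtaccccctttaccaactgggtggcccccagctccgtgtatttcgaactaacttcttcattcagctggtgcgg
Mrpl23-ps1: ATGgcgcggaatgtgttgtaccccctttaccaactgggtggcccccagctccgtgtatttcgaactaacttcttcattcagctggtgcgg
The transcripts were identical over 540 bases with 0 differences, from position 151 to 690 of the 692 bases of Mrpl23-201, and the pseudogene transcript ended in a run of 42 A. Of the stretches of 31 bases in Mrpl23-201, 77.0% also occurred in the pseudogene.

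Promoter sequence was available for 69 of the 78 members (75 windows, RefSeq on GRCm38.p6, from 250 bases before to 50 bases after the annotated start). Each window was searched on both strands for short motifs. The letters CCGGAAG, bound by factors of the ETS family, occurred in 26 of 75 member windows (34.7%) and in 16.4% of 12659 windows of detected protein coding genes. AAGATGGC, the core of the YY1 motif, occurred in 12 windows (16.0%) against 4.29%. The motif of NRF1, a nuclear regulator of mitochondrial genes, was searched as GCGCA, any base, then GCGC. It occurred in 13 windows (17.3%) against 9.59%. At least 1 of these 3 motifs lay in 43 member windows (57.3%) and in 27.0% of the windows of detected protein coding genes. The shares in members and in those genes were closer for the CCAAT box, with 40.0% against 37.3%. They were also closer for the TATA box TATAAA, with 6.67% against 6.98%, and the SP1 motif GGGGCGG, with 37.3% against 42.2%. The ERR motif AAGGTCA was rare, in 4 member windows (5.33%) against 3.17%. The median GC content of the windows was 58.7% in members and 61.0% in detected protein coding genes. The median ratio of observed to expected CpG was higher in members, at 0.820 against 0.747. The ETS and NRF1 letters hold CpG, and the motif counts were not adjusted for base composition. These counts describe letters in a window and show no binding.

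The sites below are those of the 3 members with the highest level among the sites that lay wholly before the start and outside annotated exons. The motif is in capitals and up to 20 bases stand on each side, on the strand of the gene. The ETS motif of Mrpl52 and the NRF1 motif of Mrpl12 read on the opposite strand. ETS sites were at chr14:54426842-54426888 (Mrpl52, plus strand), chr7:105811298-105811337 (Mrpl17, minus strand) and chr11:115403715-115403751 (Mrpl58, plus strand).
Mrpl52 ETS: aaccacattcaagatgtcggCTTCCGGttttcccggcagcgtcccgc
Mrpl17 ETS: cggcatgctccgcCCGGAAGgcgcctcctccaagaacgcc
Mrpl58 ETS: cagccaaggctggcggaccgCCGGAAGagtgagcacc
NRF1 sites were at chr7:105811107-105811156 (Mrpl17, minus strand), chr11:120484536-120484585 (Mrpl12, plus strand) and chr11:97315658-97315707 (Mrpl45, plus strand, the nearer to the start of 2 sites).
Mrpl17 NRF1: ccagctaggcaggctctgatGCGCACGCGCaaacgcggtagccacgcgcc
Mrpl12 NRF1: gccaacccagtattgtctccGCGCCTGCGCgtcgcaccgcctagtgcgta
Mrpl45 NRF1: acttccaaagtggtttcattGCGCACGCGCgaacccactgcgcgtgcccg
The 26 members with the ETS motif had median levels of 112 TPM in replicate 1 and 125 TPM in replicate 2, and the 43 members with a window but without it 55.1 and 62.6 TPM. For NRF1 the medians were 90.4 and 102 TPM with the motif (13 members) and 85.9 and 96.2 TPM without (56 members). Members with the YY1 motif (12) had 54.1 and 63.8 TPM, against 87.7 and 102 TPM in the 57 without. These levels are a description across members, and the base composition and length of the genes were not held equal.

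All 78 members were detected, at 1 TPM or more in both libraries, while 56.7% of 21951 protein coding genes passed the same rule. Their median level was 87.7 TPM in replicate 1 and 101 TPM in replicate 2, and the median of all 13794 detected genes was 12.7 and 11.7 TPM. Individual members ran over a wide range, from 5.84 to 553 TPM in replicate 1 and from 8.10 to 545 TPM in replicate 2. Their standard deviation on the log2 TPM scale was 1.18 and 1.14, compared with 2.19 and 2.20 for detected genes. The order of the members was much the same in both libraries (Spearman rho 0.978, n = 78 genes that share their libraries).

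**Figure D1:**
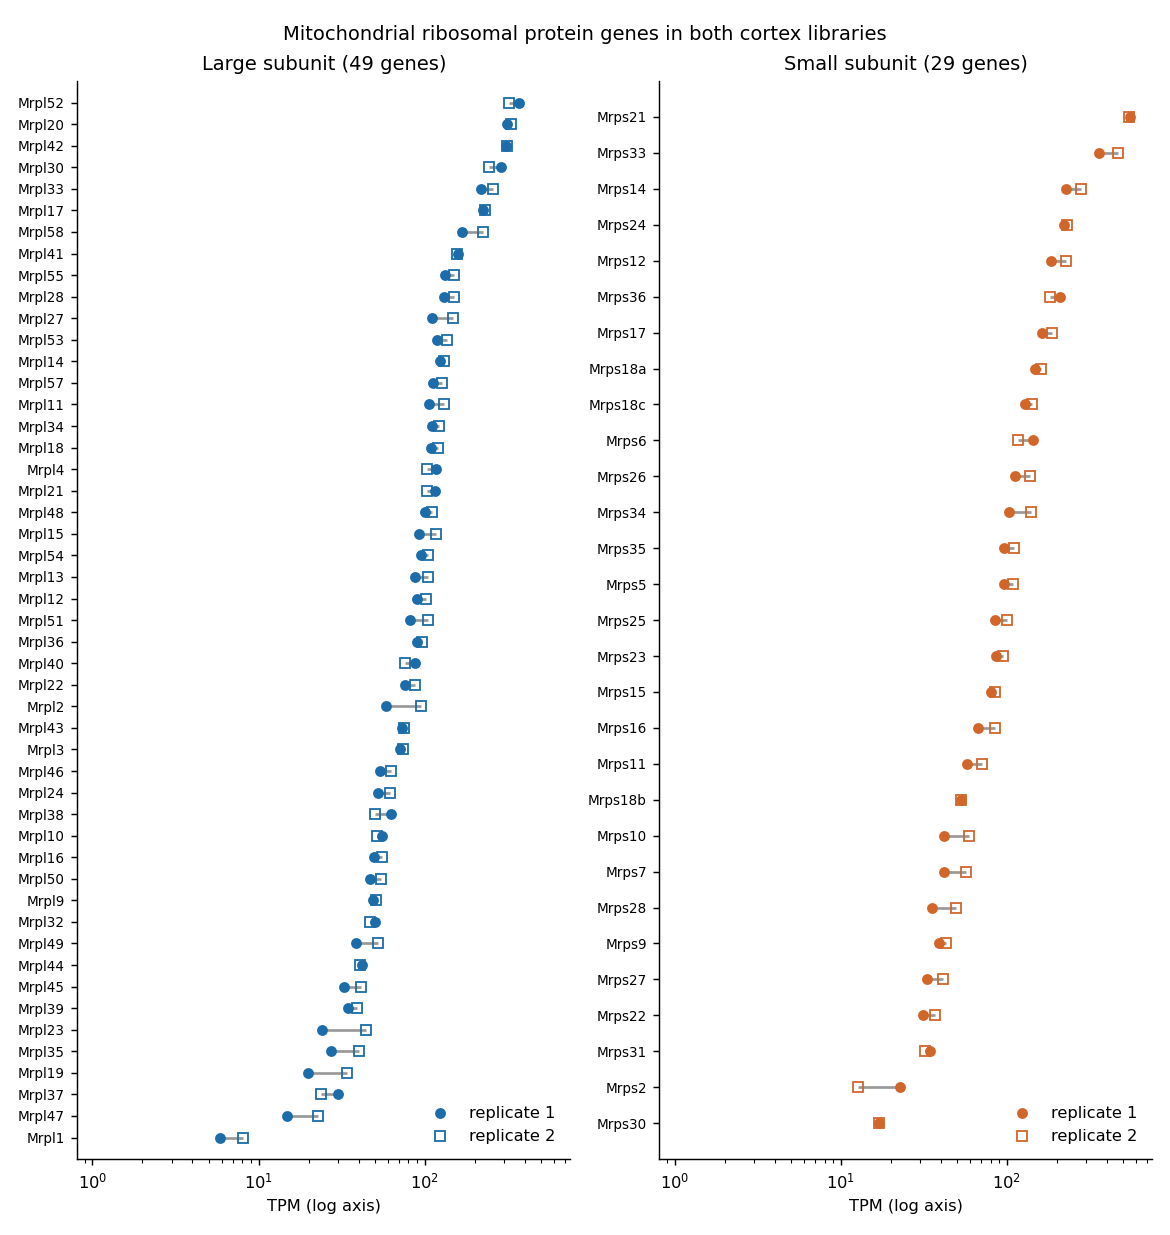
Level of each of the 78 genes in TPM (log axis), with the large subunit on the left and the small subunit on the right, filled circles for replicate 1, open squares for replicate 2 and a line between them. In replicate 1, 20 genes of the large and 12 of the small subunit lie at 100 TPM or above, and the symbols of 1 gene lie close together beside the distance from Mrps21 at 553 TPM to Mrpl1 at 5.84 TPM.

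The large and the small subunit had nearly the same median level. The large subunit stood at 87.8 TPM in replicate 1 and 102 TPM in replicate 2 (95.04 ± 10.3, SD, n = 2 libraries), and the small subunit at 86.3 and 100 TPM (93.2 ± 9.77). The log2 ratio of the medians, large over small, was 0.02 and 0.03. Its mean was 0.027 ± 0.0051 (SD, n = 2 libraries). An exact two-sided test on 2 libraries cannot go below a p of 0.5, so no call was made between the subunits. The sign of the ratio depended on the summary. The mean of log2 levels put the large subunit 0.12 below the small one, and the mean TPM was 103 and 111 in the large subunit, against 120 and 134 in the small one. The second quantification, made from the same reads, also put the large subunit lower, at a log2 ratio of medians of -0.10. Summed over genes, the large subunit held 59.2% and 58.4% of the members' TPM and the small subunit 40.8% and 41.6%.

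Genes were ordered within each subunit by the mean of both libraries. In the large subunit, the highest gene was Mrpl52 (ENSMUSG00000010406.12, chr14:54426909-54429756), a protein found only in mitochondrial ribosomes, with 369 and 322 TPM. Mrpl20, a bacterial-type protein that binds ribosomal RNA, had 311 and 333 TPM. Mrpl42, a mitochondria-specific protein, had 310 and 312 TPM. The order of these 3 genes was not the same in the libraries, since Mrpl20 was above Mrpl52 in replicate 2. The lowest gene was Mrpl1 (ENSMUSG00000029486.13, chr5:96209493-96266727), which encodes the protein of the mobile stalk beside the exit site, with 5.84 and 8.10 TPM from 698 and 428 fragments. Mrpl47, whose bacterial relative lies at the tunnel exit, followed with 14.9 and 22.9 TPM, and mitochondria-specific Mrpl37 with 30.0 and 23.9 TPM. In replicate 1 alone Mrpl19 (19.9 TPM), Mrpl23 (24.2 TPM) and Mrpl35 (27.4 TPM) also lay below Mrpl37. Mrpl1 was below every other member in both libraries.

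In the small subunit, Mrps21 (ENSMUSG00000054312.6, chr3:95862634-95871519), a short bacterial-type protein, was highest with 553 and 545 TPM. Mrps33, a mitochondria-specific protein, had 358 and 468 TPM, and Mrps14, a bacterial-type protein of the head of the subunit, 227 and 278 TPM. Mrps21 was thus above every other member of either subunit in both libraries. At the low end stood Mrps30 (ENSMUSG00000021731.10, chr13:118378381-118387252) with 17.1 and 17.1 TPM, Mrps2 with 22.9 and 12.8 TPM and Mrps31 with 34.7 and 32.3 TPM. The order of Mrps30 and Mrps2 was not the same in the libraries.

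A few symbols do not name the place of the protein. Mrps30 and Mrps18a encode proteins that sit in the large subunit, and Mrps18a had 149 and 161 TPM. Mrps36 encodes a protein now known as part of the alpha-ketoglutarate dehydrogenase complex and not of the ribosome, and had 208 and 181 TPM. Mrpl58, a release factor that was built into the large subunit, had 168 and 226 TPM. With the genes sorted by place, 51 in the large and 26 in the small subunit, the log2 ratio of the medians was 0.05.

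Taken over both subunits, members named as bacterial-type and as mitochondria-specific also had similar levels. These classes follow the nomenclature of ribosomal proteins and were not checked against descent. The 46 bacterial-type members had medians of 90.1 and 103 TPM, and the 31 mitochondria-specific members 85.4 and 94.5 TPM. Within the large subunit the medians were 96.4 ± 8.91 TPM for 30 bacterial-type genes and 78.9 ± 3.59 TPM for 19 mitochondria-specific genes (SD, n = 2 libraries). By library, these medians of the large subunit were 90.1 and 103 TPM against 81.5 and 76.4 TPM. Within the small subunit by symbol, the medians were 92.5 ± 6.22 TPM for 16 bacterial-type genes and 91.6 ± 8.09 TPM for 12 mitochondria-specific genes. The latter include Mrps30 and Mrps18a. The proteins of the flexible stalk that recruits translation factors differed among themselves, with Mrpl11 at 106 and 131 TPM, Mrpl12 at 90.4 and 102 TPM and Mrpl10 at 55.1 and 51.7 TPM.

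Shorter genes had higher levels. Across the 78 members the Spearman rho between TPM and transcript length was -0.78, with -0.80 in the large and -0.77 in the small subunit, and -0.22 across 13794 detected genes. Against the coding length it was -0.67. The 26 members with the shortest coding sequence (65 to 160 codons) had median levels of 138 and 149 TPM, the next 26 (166 to 251 codons) 87.0 and 97.3 TPM and the 26 longest (252 to 442 codons) 45.4 and 46.8 TPM. Fragments, which are not divided by length, ran in the same order, with medians of 3565, 3039 and 2261 per gene in replicate 1. Mrps21 has 87 codons and Mrps30 has 442. The subunits did not differ much in this measure, with median coding lengths of 192 codons in the large and 196 in the small subunit. Genes are not independent replicates, and TPM itself divides by an effective length that is small for short transcripts.

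**Figure D2:**
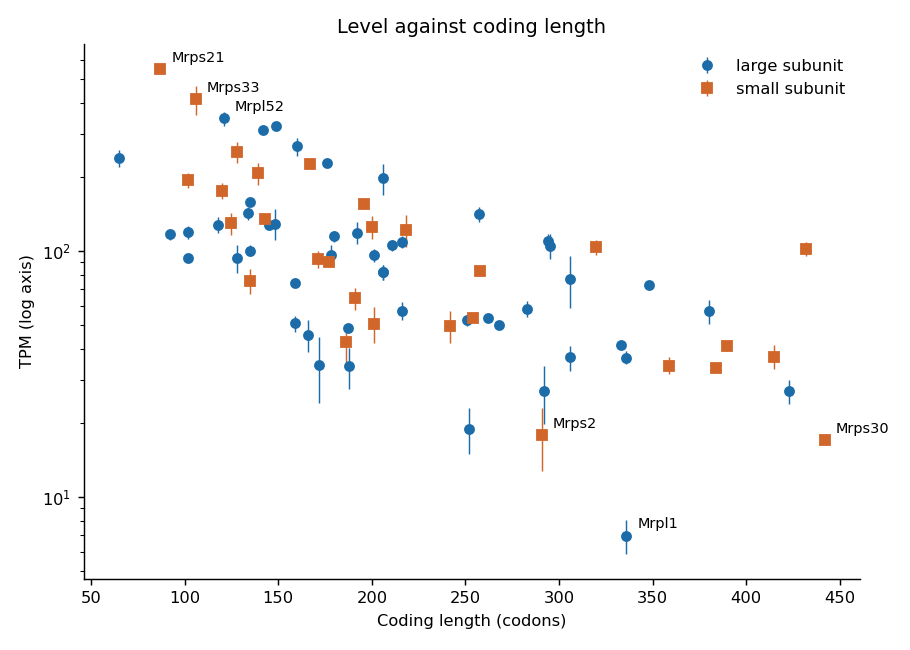
Mean TPM of both libraries (log axis) against coding length in codons, with circles for the large and squares for the small subunit and bars that span the 2 libraries. Levels decline from Mrps21 at 87 codons to Mrps30 at 442 codons, and Mrpl1 lies below the other genes of its length.

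The rest of the mitochondrial translation machinery was measured beside the members. The 5 mitoribosomal proteins that carry other names had medians of 87.8 and 80.5 TPM. The highest of them were Aurkaip1 with 199 and 202 TPM and Chchd1 with 177 and 183 TPM, both of the small subunit, and the lowest was Ptcd3, also of the small subunit, with 16.0 and 20.1 TPM. The 26 assembly factors, which modify the ribosomal RNA and join the parts, had medians of 12.9 and 12.7 TPM. The medians of the members were 6.81 and 7.97 times as high. The highest assembly factors were the RNA helicase Dhx30 with 111 and 76.5 TPM and Mpv17l2 with 80.1 and 88.0 TPM, and the lowest was the RNA processing factor Ybey with 2.71 and 3.22 TPM. The 12 translation factors had medians of 9.09 and 12.9 TPM, with the elongation factor Tufm at 66.5 and 68.8 TPM, its exchange factor Tsfm at 40.2 and 42.4 TPM and the translational activator Taco1 at 4.61 and 4.31 TPM.

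The 20 genes that charge mitochondrial tRNAs had medians of 11.7 and 11.5 TPM. Among them Lars2, the leucyl-tRNA synthetase, had 284 and 101 TPM, Fars2, for phenylalanine, 39.0 and 53.6 TPM and Mars2, for methionine, 2.38 and 2.85 TPM. The level of Lars2 depended on the quantification, since the second one gave it 579 and 218 TPM. The 8 factors of mitochondrial transcription, RNA handling and DNA replication had medians of 12.3 and 14.4 TPM. They were led by the RNA stabilizing protein Slirp with 298 and 324 TPM and the RNA polymerase Polrmt with 12.8 and 19.0 TPM. The DNA helicase Twnk was lowest with 7.10 and 5.90 TPM. The 13 mitochondrially encoded genes, whose proteins the mitochondrial ribosome makes, had medians of 1580 and 2253 TPM. The 79 cytosolic ribosomal protein genes had medians of 1082 and 1151 TPM, and the log2 ratio of the members' median to theirs was -3.62 and -3.51. In the cytosolic ribosome the large subunit genes had a lower median than the small subunit genes in both libraries, with 999 and 1067 TPM in 47 genes against 1197 and 1312 TPM in 32 genes.

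**Figure D3:**
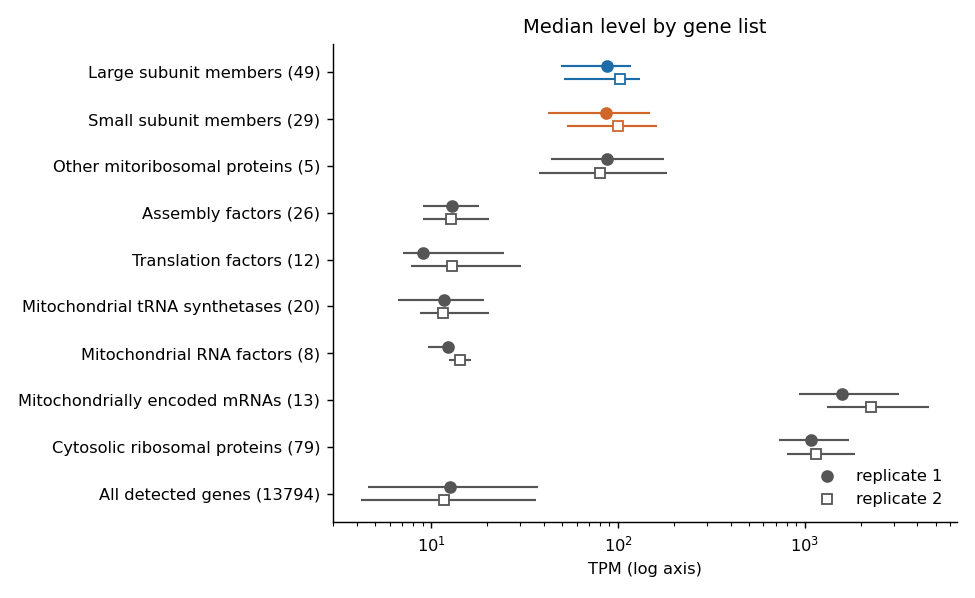
Median TPM of each list (log axis), with filled circles for replicate 1, open squares for replicate 2, lines from the lower to the upper quartile of the genes and the number of genes in brackets. Both subunits lie near 90 to 100 TPM, above the assembly, translation, tRNA and RNA factors at 9 to 14 TPM. Both lie below the cytosolic ribosomal proteins and the mitochondrially encoded genes, which are labelled as mRNAs. The list of mitochondrial RNA factors also holds the DNA factors Polg and Twnk.

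A list of 12 members whose human counterparts are known to cause mitochondrial disease when mutated had medians of 68.9 and 79.4 TPM. The highest of them was Mrps14 and the lowest Mrps2. Mrps16, a bacterial-type protein, had 66.7 and 84.7 TPM, and Mrps22, a mitochondria-specific protein of the small subunit, had 31.5 and 37.0 TPM.

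The libraries were then set against each other gene by gene. The log2 ratio of replicate 1 over replicate 2 was taken from CPM (fragments scaled to the size of the library) plus 0.5, and an exact binomial test of the fragments with Benjamini-Hochberg adjustment over 14646 genes called a gene at an adjusted p under 0.05. That test compares these 2 libraries and covers counting error only. Of the 78 members, 52 were called (66.7%), beside 62.2% of all genes tested. In replicate 1, 20 members were higher, beside 36.3% of all genes, and 32 were lower, beside 25.9%. The large subunit had 13 higher, 21 lower and 15 not called, and the small subunit 7, 11 and 11. The median log2 ratio was -0.05 in the large subunit, -0.04 in the small subunit and 0.03 in all genes tested.

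Most of these differences were small. The median size of the log2 ratio, regardless of sign, was 0.14 in the members and 0.25 in all genes tested. Called differences of at least 1.5-fold were seen in 1 member higher and 1 member lower in replicate 1. Over all genes tested the shares were 17.2% and 3.22%. These values come from ratios without trends on GC content and length taken out. Among the 7517 genes with a mean CPM in the range of the members (14.5 to 198), 73.4% were called and 19.5% were called with at least 1.5-fold. Scaling by total counts instead of TMM moved the median of all genes from 0.03 to -0.09 and that of the members from -0.05 to -0.18. It gave 9 members higher and 53 lower in replicate 1, beside 4118 higher and 5724 lower of all 14640 genes then tested. The members' median relative to all genes was -0.08 with TMM and -0.09 with total counts.

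Mrps2 (ENSMUSG00000035772.11, chr2:28468066-28471178), a protein of the small subunit, was the member with the largest ratio. It had 1778 fragments in replicate 1 and 512 in replicate 2, at 35.8 and 18.3 CPM. The log2 ratio was 0.95 (95% interval 0.83 to 1.12, adjusted p = 1.40e-44 by the exact binomial test) and 0.93 in the second quantification. Of its stretches of 31 bases, 99.8% were found in no other gene. The difference was therefore seen in both quantifications, and it has no replicate check.

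The next members higher in replicate 1 were Mrpl37 with a log2 ratio of 0.42, mitochondria-specific Mrpl38 with 0.38, the bacterial-type Mrps6 with 0.37 and Mrpl4 with 0.30. Mrps6 overlaps the transporter gene Slc5a3 and shares 15.8% of its stretches of 31 bases with it, and the second quantification gave Mrps6 a ratio of 0.40. The members lower in replicate 1, after Mrpl23, were Mrps28 with -0.42, Mrpl2 with -0.41, Mrps10 with -0.39 and Mrpl27 with -0.36, all of bacterial type. Mrpl2 encodes a protein that in bacteria lies close to the peptidyl transferase centre. Over all genes tested the ratio went with the GC content of the transcript (Spearman rho 0.31, n = 14646), while over the members rho was -0.06 (n = 78), with 0.16 in the large (n = 49) and -0.41 in the small subunit (n = 29). With trends on GC content and length taken out, Mrpl38 and Mrpl4 turned to -0.034 and -0.16. The other genes named for their ratio kept their direction, among them Mrps2 at 0.87, Mrpl23 at -0.98 and Mrpl2 at -0.62. Of the 52 called members, 4 turned sign in this way. The size of the ratios also depended on this step. Mrps34 moved from -0.35 to -0.82 and Mrps26 from -0.17 to -0.70, while Mrpl37 moved from 0.42 to 0.26.

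**Figure D4:**
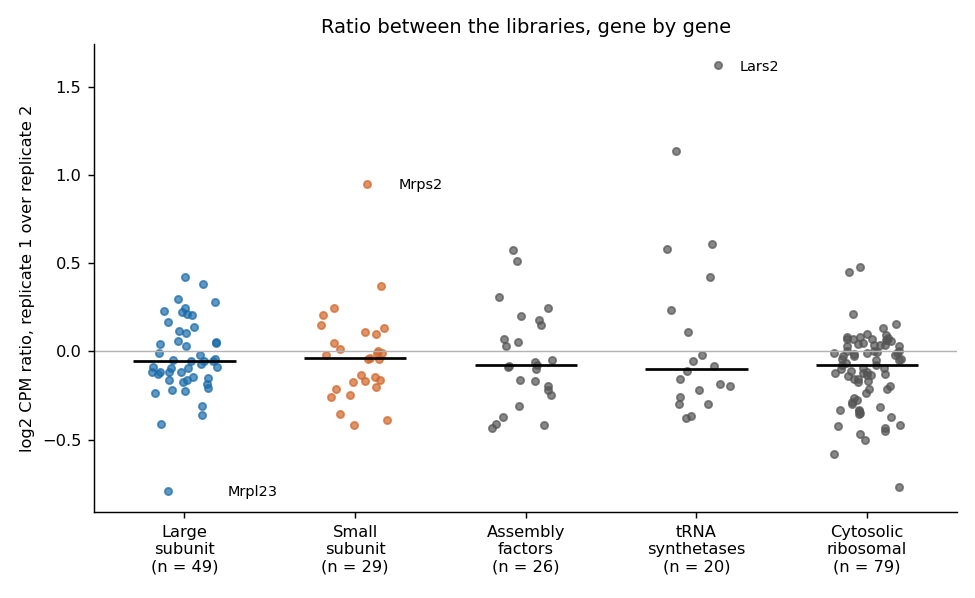
Log2 ratio of CPM, replicate 1 over replicate 2, with 1 point for each gene and a black line at the median of each list. Both subunits lie mostly within 0.4 of 0, with Mrps2 at 0.95 and Mrpl23 at -0.79 apart from the rest, and Lars2 at 1.62 is the highest point of the other lists shown.

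The ratios of the members ran from -0.79 to 0.95. Of the lists that follow, the tRNA synthetases and the mitochondrially encoded genes held ratios beyond that range, and the others did not. The counts of calls below stand beside 36.3% higher and 25.9% lower in replicate 1 over all genes tested. Of the 26 assembly factors 4 were called higher and 7 lower in replicate 1. Their ratios ran from -0.43 in Trub2 to 0.58 in Noa1, a GTPase. Of the 20 genes of the tRNA synthetase list 6 were higher and 8 lower, with Lars2 at 1.62 and Yars2, for tyrosine, at 1.13. The 12 translation factors had 3 higher and 2 lower, and the 8 transcription, RNA and DNA factors 2 and 2. The 5 other mitoribosomal proteins had 2 higher and 1 lower, and the 79 cytosolic ribosomal proteins 21 and 44. Of the 13 mitochondrially encoded genes 5 were higher and 7 lower in replicate 1. One of the 5 was mt-Nd4l, which was listed with 285 fragments in replicate 1 and 0 in replicate 2, while the second quantification gave it 1465 and 989 TPM.

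Mrpl23 had the lowest ratio of all members, and its value rested on the pseudogene. It had 521 fragments in replicate 1 and 518 in replicate 2, or 24.2 and 44.7 TPM, and a log2 ratio of -0.79 (95% interval -0.995 to -0.64, adjusted p = 8.18e-19 by the exact binomial test). The second quantification gave -0.21. The pseudogene row held 2092 and 1264 fragments, which was 80.1% and 71.0% of the pair, and the second quantification gave it 61.5% and 62.2%. The authors' posterior standard deviation of the count was above 1% of the count in Mrpl23 alone, at 36.4 and 40.5 fragments. Summed, the pair had 149 and 180 TPM (165 ± 22.1, SD, n = 2 libraries), which would place it at rank 15 of the members, and a log2 ratio of -0.27. Fragments inside the identical 540 bases shown in part above cannot be told apart by sequence.

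No other row of the family with a pseudogene symbol (-ps) came near this count. All of these held 5 fragments or fewer in each library, among them Mrps36-ps2 with 2.67 and 4.81 and Mrps36-ps1 with 1.41 and 1.58. Rows without such a symbol also shared sequence with members. Gm5776 held 31.1% of the stretches of 31 bases of Mrps33, and had 64.2 and 54.1 fragments against 9689 and 5621 for Mrps33. Of the 78 members, 36 shared none of their stretches of 31 bases with another gene and 57 shared at most 10%. Besides Mrpl23, only Mrpl53 shared over 50%, all of it with the gene Gm42688, which held 132 and 50.8 fragments against 2533 and 1599 for Mrpl53.

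The quantifications differed by a common step. The TPM of the gene table was a median 1.34 and 1.22 times that of the second table in the members and 1.30 and 1.21 times in all detected genes. It was higher in both libraries in 75 of 78 members. The number of members 2-fold apart was 0, beside 2.31% of 13794 detected genes, and 7 of the 79 cytosolic ribosomal protein genes were that far apart. The mean log2 difference ran from -0.33 in Mrpl23 to 0.56 in Mrpl2.

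The members had 343 annotated transcripts, and 75 members had more than 1. The transcript with the highest TPM was the same in both libraries in 74 of these 75, and in both quantifications as well in 70. Mrps33 was the exception between libraries, with Mrps33-201 leading at 55.6% of the TPM in replicate 1 and Mrps33-202 at 46.9% in replicate 2. The leading transcript held a median of 87.0% and 84.9% of the gene's TPM, and at least 90% in both libraries in 30 members. The most divided genes were Mrpl55, whose leading transcript held 38.5% in both libraries, Mrpl30 with 41.2% and 42.6%, Mrps10 with 47.4% and 43.4% and Mrpl24 with 46.0% and 47.7%. Short fragments are assigned to overlapping transcripts by estimate, so these shares carry an error that the tables do not give.

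In 16 of the 75 members the leading transcript was not annotated as protein coding in both libraries. The share among all detected genes was not computed, for this count or for the transcript classes below. Neither can therefore be read as particular to the members. Mrps26-201, annotated as a retained intron, held 95.3% and 96.0% of the TPM of Mrps26, a mitochondria-specific gene. Mrps16-202, a processed transcript without a coding sequence, held 90% and 91.6%. Mrpl57-202, a retained intron, held 89.7% and 90.9%, and Mrps14-201, annotated as a target of nonsense-mediated decay, held 83.2% and 85.7%. Mrps25-201 and Mrps24-201, both retained introns, held 75.5% and 70.7%, and 59.6% and 73.0%. Mrps5-205, a retained intron, held 51.1% and 43.3%, and the second quantification put Mrps5-207 first. The other leading transcripts named here, other than that of Mrps33, were the same in the second quantification. The main coding transcripts of Mrps26, Mrps16, Mrpl57, Mrps14 and Mrps25 were long, at 4278, 2572, 2877, 2999 and 6073 bases. Weighted by TPM over all transcripts, the lengths of these genes were 1197, 962, 747, 994 and 1352 bases. For Mrps24 the values were 995 and 718, and for Mrps5 424 and 896. Whether the annotated lengths shaped these shares was not tested.

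Added over genes, protein coding transcripts held 85.9% and 83.5% of the TPM of the large subunit and 76.2% and 72.3% of the small one. Retained introns held 5.50% and 6.66% in the large and 12.7% and 15.0% in the small subunit, and in the second quantification 5.33% and 6.19% in the large and 15.8% and 17.3% in the small. A few genes made up most of this share. Mrps24, Mrps26 and Mrps25 held 80.2% and 72.3% of the retained intron TPM of the small subunit, and Mrpl57, Mrpl58 and Mrpl52 77.6% and 77.5% of that of the large. Without these genes the shares were 1.41% and 1.71% in the large and 2.86% and 4.71% in the small subunit.

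**Figure D5:**
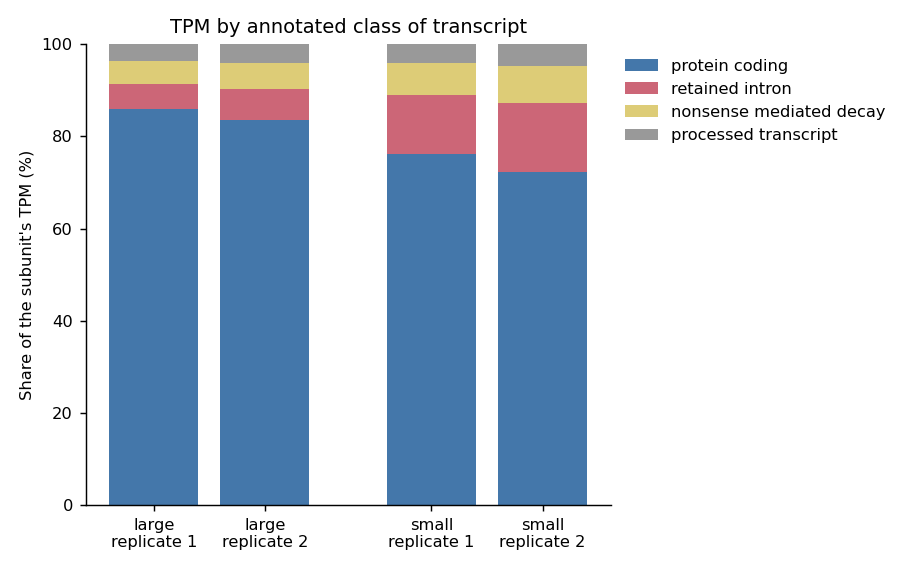
Share of each subunit's summed TPM in percent, by the annotated class of transcript, with 1 bar for each subunit and library. Protein coding transcripts make up 85.9% and 83.5% in the large and 76.2% and 72.3% in the small subunit, and the retained intron share is larger in the small subunit in both libraries.

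The members were spread over 17 chromosomes. Chromosome 11 held 11 of them, chromosome 17 held 8, chromosome 6 held 7 and chromosome 7 held 6. A detected gene on the opposite strand started within 1000 bases in the head to head direction in 18 members (23.1%), beside 9.59% of 12442 detected protein coding genes. One such neighbour is the synthetase gene Sars2, 172 bases from Mrps12, and others are the proteasome gene Psma2, 75 bases from Mrpl32, and Fau, which encodes a cytosolic ribosomal protein, 59 bases from Mrpl49. Mrpl46 (chr7:78775236-78783531) and Mrps11 (chr7:78783119-78792989), 1 gene of each subunit, overlap at their starts. They had 53.8 and 62.6 TPM, and 57.7 and 70.8 TPM, and log2 ratios of -0.12 and -0.17. A total of 20 members overlapped another detected gene (25.6%, beside 22.7%). Use of strand in counting was not given in the sources used here, so fragments from such overlaps may be divided wrongly.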

How the data were processed

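The authors deposited, for each of 2 libraries, a gene table and a transcript table with expected counts and TPM, which they made from transcriptome alignments to mm10 with GENCODE M21, per the deposited notes. The transcript table also held the percent of a gene's TPM, computed by the authors, per the file headers. A second transcript table, made by the authors directly from the reads, held estimated counts and TPM. Aligner and quantifier names were not given in the sources used here. Counts were deposited without normalization, and the authors scaled TPM to an equal sum per library. The gene tables' posterior standard deviations of the count are the authors' values.

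Of 81881 rows, 26431 without a gene symbol (0.0239% and 0.0198% of the fragments) stayed out. Second tables were summed by gene. A gene was detected at 1 TPM or more in both libraries. Lists are described by the median TPM per library, with mean ± SD over 2 libraries. Expected counts were rounded and compared between the libraries, replicate 1 over replicate 2, by a two-sided exact binomial test with TMM library sizes (edgeR 4.0.16, R 4.3.3, scipy 1.17.1) with Benjamini-Hochberg adjustment over all genes whose mean CPM reached 1. Intervals are 95% Clopper-Pearson and cover counting error only. Quantifications were compared as log2 TPM ratios with a pseudocount of 0.1. The leading transcript was taken in members with a gene TPM of at least 5. Named genes were the 3 highest and 3 lowest of each subunit, up to 5 called members in each direction, the genes with the most divided transcripts, those whose symbol and place differ, the pseudogene rows with most fragments and the 2 highest and the lowest of each list. Genes named for promoter sites, shared sequence, neighbours and leading transcripts that do not code were chosen after their values were seen. So were those named for library ratios in the other lists. Members and lists were chosen with earlier results of these data known.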

Additional observations from a re-analysis of the deposited data

How the results depend on the processing

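No paired analysis was possible because the series has 1 group. With each library alone, the median level was 87.8 to 102.3 TPM in the large and 86.3 to 100.2 TPM in the small subunit, and the log2 ratio of large over small 0.02 to 0.03. That ratio is too small for a direction. It was -0.10 with the second tables, where the medians were 72.5 TPM in the large and 78.0 TPM in the small subunit. It was -0.12 with the mean of log2 levels, which put the large subunit at 82.0 TPM, and -0.0059 with the 5 members of other names added. It was 0.052 by place in the ribosome and, in an alternative chosen after seeing the data, 0.049 with Mrpl23 and its pseudogene summed. Members against cytosolic ribosomal proteins gave a log2 ratio of -3.74 with the mean of log2 levels in place of -3.57, and -3.62 to -3.51 by library. Total-count scaling gave 6 higher and 32 lower large subunit members and 3 higher and 21 lower small subunit members. Of all 14640 genes then tested, 4118 were called higher and 5724 lower. The median log2 ratios were -0.18 in the large and -0.17 in the small subunit, where the median of all genes was -0.09. With trends on GC content and length taken out, 4 of the 52 called members turned sign (Mrpl38 to -0.034, Mrpl4 to -0.16, Mrps14 to 0.0041 and Mrps18c to 0.025). The same step enlarged the ratios of Mrps34 from -0.35 to -0.82 and Mrps26 from -0.17 to -0.70, and reduced that of Mrpl37 from 0.42 to 0.26. The other alternatives run for the levels, counts of calls and median ratios kept their direction. Transcript, promoter and neighbour results were not run under alternatives. Of 27 named members, 25 were lower in the second quantification and 2 higher, 19 of them by more than the spread between the libraries. The genes within the members' range of CPM were also chosen as a background after seeing the data. The cause of these changes was not tested.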
